A study of Mus musculus with 60 samples.

Results

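The matrix, integrin and coagulation genes described here were the rows of the normalized expression table whose symbol was Mmp14, Mmp12, Itga6, F3, Fn1 or Tgm2. Of these 6 symbols, 5 had a row among the 770 genes with values, and Fn1 (fibronectin) had no row in the table used here. The symbols were chosen by their log2 differences between brain regions, times of day and tumor groups, since earlier results of these data were known when they were proposed. The members' levels and differences are therefore given as descriptions, and a p value is given only for measures that did not choose them.

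RNA came from the hippocampus (HPC), hypothalamus (HYP) and brain stem (BS) of 20 female Balb/C mice that were 13 weeks old at collection. Tumor-bearing mice had been injected in the mammary glands with 67NR cells, a line of mammary carcinoma that does not metastasise, and vehicle injected mice had received the medium alone (DMEM). Tissue was collected on day 25 after injection at mid-dark (ZT19, where ZT is hours after lights on) or mid-light (ZT7), with 5 mice in each of the 4 groups, and each mouse was perfused with saline first. The tumor model rests on a cell line from a single spontaneous mammary tumor, and each sample is a whole dissected region. Expression was measured on the Neuroinflammation Panel for mouse of the nanoString nCounter system, in which barcoded probes bound to RNA are counted without amplification.

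Values were analysed for 56 of the 60 samples, 20 from HPC, 17 from HYP and 19 from BS. The samples without values were the BS of 1 vehicle injected mouse at mid-dark and the HYP of 3 vehicle injected mice, which left 3 HYP samples in the vehicle group at mid-dark and 4 at mid-light. The labels say that outliers by raw data had been removed before normalization. Values are on a log2 scale after quantile normalization, sample medians ran from 8.07 to 8.09, and none of the members' 280 values was at the table's lowest value. The region labels matched their markers: the lowest HPC value of the forebrain glutamate transporter Slc17a7 was 12.65 against a highest value of 9.05 in HYP and 10.63 in BS, and the lowest value of Slc17a6 was 13.01 in HYP and 12.46 in BS against a highest value of 10.06 in HPC. In such bulk samples, fewer cells of a type and less RNA per cell cannot be told apart. Probes differ in efficiency, so levels were compared between samples and regions for each gene and not between genes.

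The extracellular matrix is the mesh of proteins and sugars around cells, which proteases cut, crosslinking enzymes stabilise and integrins bind from the cell surface. In the brain it forms the basement membrane of vessels and nets around neurons. Mmp14 is a membrane-bound matrix metalloproteinase that cuts collagen and activates other metalloproteinases, and Mmp12 is a secreted elastase of macrophages. Itga6 is the integrin alpha-6 subunit of laminin receptors, found on endothelial cells among others. F3 is tissue factor, the cell surface receptor that starts the clotting cascade and that astrocytes make in the brain. Tgm2 is transglutaminase 2, which crosslinks matrix proteins, fibronectin among them.

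Promoter sequence from a RefSeq table (GRCm38.p6) is shown for Mmp14 and F3. Averaged over tumor groups, Mmp14 was lower at mid-dark than at mid-light in each region and F3 in HPC and HYP. They were not the only such members, since Mmp12 was also lower in HYP and Itga6 slightly lower in each region. Tgm2 was lower in each region too, by differences near their standard errors. These were -0.15 ± 0.10 in HPC, -0.11 ± 0.15 in HYP and -0.06 ± 0.08 in BS. The table held 601 of the 770 panel symbols and 3 of the members, the other being Mmp12. Each sequence is the 250 bases before the gene's start, 5′ to 3′, at chr14:54431348-54431597 on the + strand for Mmp14 and at chr3:121723287-121723536 on the + strand for F3. Capitals mark matches to the AP-1 motif TGANTCA, where N is any base.
Mmp14: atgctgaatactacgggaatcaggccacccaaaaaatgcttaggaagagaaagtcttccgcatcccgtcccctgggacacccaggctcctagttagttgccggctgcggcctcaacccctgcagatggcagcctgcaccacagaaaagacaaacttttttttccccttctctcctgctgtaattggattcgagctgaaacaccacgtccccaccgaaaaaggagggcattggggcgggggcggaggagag
F3: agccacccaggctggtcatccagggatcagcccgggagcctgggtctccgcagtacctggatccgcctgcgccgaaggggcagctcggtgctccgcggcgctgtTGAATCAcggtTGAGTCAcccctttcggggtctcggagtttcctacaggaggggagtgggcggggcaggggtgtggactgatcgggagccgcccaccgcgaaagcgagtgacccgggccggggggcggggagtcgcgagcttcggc
Both strands were searched for the AP-1 motif, the clock motifs CACGTG (E-box) and TTANGTAA (D-box), and the NF-kB motif, with no motif overlapping another in these windows. The F3 window held 2 AP-1 matches, TGAATCA starting 146 bases and TGAGTCA starting 135 bases before the gene's start, and no other motif. The Mmp14 window held none of the 4, and 2 windows of Mmp12, which are not shown, held a D-box match and an AP-1 match. Among 32851 RefSeq promoter windows of the same length, 6.75% held the AP-1 motif, 6.02% the E-box, 2.06% the D-box and 3.9% the NF-kB motif.

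Mmp14 was lower in HPC than in the other regions and lower at mid-dark than at mid-light in each region. Its level was 7.68 ± 0.24 in HPC (SD, n = 20), 8.32 ± 0.24 in HYP (SD, n = 17) and 8.00 ± 0.26 in BS (SD, n = 19). Within mice, HYP exceeded HPC in 17 of 17, BS exceeded HPC in 18 of 19, and BS was below HYP in all 16 with both values. The fitted difference in log2 level was -0.64 ± 0.05 for HPC minus HYP, -0.32 ± 0.05 for HPC minus BS and 0.32 ± 0.05 for HYP minus BS (standard errors, with the mouse as a block).

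In HYP, Mmp14 levels of vehicle injected mice were 8.88, 8.71, 8.48 and 8.44 at mid-light against 8.13, 8.25 and 8.08 at mid-dark. In tumor-bearing mice they were 8.34, 8.51, 8.25, 8.30 and 8.43 at mid-light against 7.92, 8.07, 8.17, 8.26 and 8.29 at mid-dark. The groups of vehicle injected mice did not overlap, while 2 of the mid-dark values of tumor-bearing mice, 8.26 and 8.29, lay within their mid-light range. In BS, levels of vehicle injected mice were 8.46, 8.47, 8.20, 8.25 and 8.31 at mid-light against 7.88, 7.92, 7.89 and 7.63 at mid-dark, again without overlap. Tumor-bearing mice had BS levels of 7.91, 8.29, 7.92, 7.89 and 8.04 at mid-light and 7.87, 7.67, 7.86, 7.96 and 7.64 at mid-dark, which overlapped. In HPC, levels of vehicle injected mice were 8.25, 7.81, 7.63, 7.97 and 7.81 at mid-light and 7.74, 7.53, 7.38, 7.31 and 7.85 at mid-dark. Those of tumor-bearing mice were 7.70, 8.09, 7.70, 7.52 and 7.53 at mid-light and 7.46, 7.63, 7.44, 7.61 and 7.56 at mid-dark. Both HPC comparisons overlapped. Averaged over tumor groups, the dark minus light difference in log2 level of Mmp14 was -0.25 ± 0.09 in HPC, -0.35 ± 0.07 in HYP and -0.36 ± 0.07 in BS (standard errors). This is 0.841, 0.786 and 0.781 of the mid-light level.

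The dark minus light difference of Mmp14 was larger in size in vehicle injected than in tumor-bearing mice in each region. In vehicle injected mice it was -0.33 ± 0.13 in HPC, -0.47 ± 0.11 in HYP and -0.51 ± 0.10 in BS, and in tumor-bearing mice -0.17 ± 0.13, -0.22 ± 0.09 and -0.21 ± 0.09 (standard errors). The mid-dark means of both groups were close, 8.15 and 8.14 in HYP and 7.83 and 7.80 in BS, whereas at mid-light the tumor-bearing mean was lower, 8.37 against 8.62 in HYP and 8.01 against 8.34 in BS. Tumor minus vehicle was accordingly -0.19 ± 0.13, -0.26 ± 0.10 and -0.33 ± 0.09 at mid-light and -0.03 ± 0.13, -0.01 ± 0.11 and -0.03 ± 0.10 at mid-dark in HPC, HYP and BS. The tumor by phase interaction, the difference between those differences, was 0.16 ± 0.18, 0.25 ± 0.14 and 0.30 ± 0.13. When mice were left out singly, the HPC values of Mmp14 ranged from -0.28 to -0.10 for tumor minus vehicle at mid-light, from -0.21 to -0.07 for dark minus light in tumor-bearing mice and from 0.08 to 0.26 for the interaction. In HYP the mid-light difference ranged from -0.32 to -0.17 and the interaction from 0.16 to 0.31. No gene of the panel passed limma's interaction test after adjustment in any region, with 47, 20 and 28 genes at an unadjusted p under 0.05 and 0 with ordinary in place of moderated p values.

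**Figure D1:**
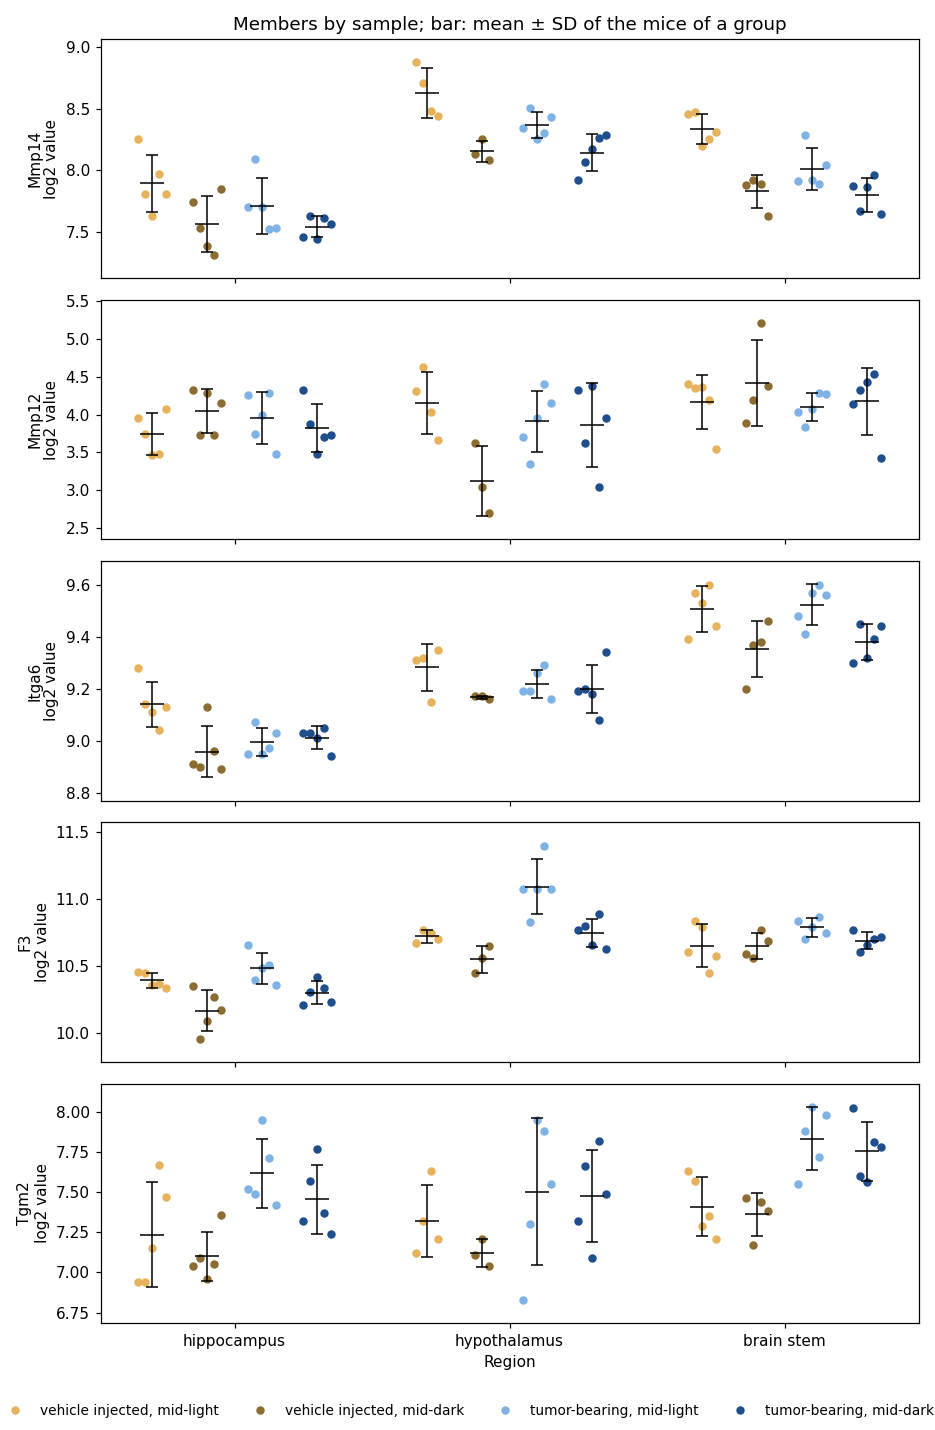
Log2 values of Mmp14, Mmp12, Itga6, F3 and Tgm2 (one panel per gene, vertical axis) in each sample, by region and group along the horizontal axis. Points are mice and bars the mean ± SD of a group. Mmp14 sat lowest in HPC and was lower at mid-dark than at mid-light, and Tgm2 was higher in tumor-bearing mice in BS, where the mid-dark groups did not overlap.

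Mmp12 values were low on this scale, between 2.70 and 5.21, and varied widely between mice. Its level was 3.89 ± 0.31 in HPC (SD, n = 20), 3.82 ± 0.55 in HYP (SD, n = 17) and 4.21 ± 0.38 in BS (SD, n = 19). The fitted difference was -0.32 ± 0.12 for HPC minus BS, -0.45 ± 0.12 for HYP minus BS and 0.13 ± 0.12 for HPC minus HYP. HPC minus BS was smaller in size than the BS SD, and the others were smaller than the HYP SD. Mouse 28 (vehicle injected, mid-dark) gave both the lowest value, 2.70 in HYP, and the highest, 5.21 in BS. When mice were left out singly, HYP minus BS ranged from -0.56 to -0.32. Within mice, BS exceeded HPC in 12 of 19 (median difference 0.22) and HYP in 11 of 16 (median 0.12), and HYP exceeded HPC in 7 of 17. In HYP, vehicle injected mice had Mmp12 levels of 4.31, 4.63, 4.03 and 3.66 at mid-light against 3.62, 3.04 and 2.70 at mid-dark. These groups did not overlap, although 3.66 and 3.62 were nearly equal and the mid-dark group held 3 samples. Tumor-bearing mice had HYP levels of 3.70, 3.35, 3.95, 4.40 and 4.15 at mid-light and 4.32, 3.62, 4.38, 3.04 and 3.96 at mid-dark, where 4 of the 5 mid-dark values lay within the mid-light range. Dark minus light was -1.03 ± 0.33 in vehicle injected and -0.05 ± 0.28 in tumor-bearing mice, and tumor minus vehicle was -0.24 ± 0.29 at mid-light against 0.74 ± 0.32 at mid-dark. In HPC and BS the same differences were between -0.25 and 0.30, and the groups overlapped.

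Itga6 varied little between mice and was lowest in HPC, higher in HYP and highest in BS. Its level was 9.03 ± 0.10 in HPC (SD, n = 20), 9.22 ± 0.08 in HYP (SD, n = 17) and 9.45 ± 0.11 in BS (SD, n = 19). The order held within each mouse, with HYP above HPC in 17 of 17, BS above HPC in 19 of 19 and BS above HYP in 16 of 16. The fitted differences were -0.19 ± 0.03 for HPC minus HYP, -0.41 ± 0.03 for HPC minus BS and -0.22 ± 0.03 for HYP minus BS. In BS, vehicle injected mice had Itga6 levels of 9.39, 9.57, 9.53, 9.60 and 9.44 at mid-light and 9.20, 9.37, 9.38 and 9.46 at mid-dark. Tumor-bearing mice had 9.48, 9.41, 9.57, 9.60 and 9.56 at mid-light and 9.30, 9.45, 9.32, 9.39 and 9.44 at mid-dark, so the phases overlapped in both groups. Dark minus light for Itga6 was -0.15 ± 0.04 in BS, -0.08 ± 0.04 in HPC and -0.06 ± 0.04 in HYP, averaged over tumor groups. In HPC it was -0.18 ± 0.05 in vehicle injected and 0.02 ± 0.05 in tumor-bearing mice. Averaged over phases, tumor minus vehicle was -0.04, -0.02 and 0.02 in HPC, HYP and BS, each with a standard error of 0.04. The HPC average joined values of opposite sign, -0.14 ± 0.05 at mid-light and 0.06 ± 0.05 at mid-dark, with an interaction of 0.20 ± 0.08.

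F3 was lower in HPC than in the other regions, lower at mid-dark in HPC and HYP, and higher in the HYP of tumor-bearing mice. Its level was 10.34 ± 0.16 in HPC (SD, n = 20), 10.81 ± 0.23 in HYP (SD, n = 17) and 10.70 ± 0.11 in BS (SD, n = 19). Within mice, HYP exceeded HPC in 17 of 17 and BS exceeded HPC in 19 of 19, while BS exceeded HYP in 4 of 16. The fitted differences were -0.44 ± 0.04 for HPC minus HYP, -0.36 ± 0.03 for HPC minus BS and 0.08 ± 0.04 for HYP minus BS. The last of these was smaller than the SD between mice, and over vehicle injected mice alone it was -0.01.

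In HPC, F3 levels of vehicle injected mice were 10.46, 10.45, 10.36, 10.37 and 10.34 at mid-light against 10.35, 9.96, 10.09, 10.27 and 10.17 at mid-dark. Tumor-bearing mice had HPC levels of 10.66, 10.40, 10.49, 10.51 and 10.36 at mid-light against 10.21, 10.31, 10.42, 10.34 and 10.23 at mid-dark. In both groups the overlap came from the highest mid-dark values, 10.35 and 10.42. In HYP, vehicle injected mice had F3 levels of 10.67, 10.77, 10.75 and 10.70 at mid-light and 10.45, 10.56 and 10.65 at mid-dark. Tumor-bearing mice had HYP levels of 11.08, 10.83, 11.08, 11.40 and 11.08 at mid-light and 10.77, 10.80, 10.66, 10.89 and 10.63 at mid-dark. At mid-light each tumor-bearing mouse was above each vehicle injected mouse in HYP, with tumor-bearing values from 10.83 to 11.40. Dark minus light for F3 was -0.21 ± 0.05 in HPC, -0.26 ± 0.07 in HYP and -0.05 ± 0.05 in BS, averaged over tumor groups. Tumor minus vehicle in HYP was 0.37 ± 0.09 at mid-light and 0.20 ± 0.10 at mid-dark, a level 1.29 and 1.15 times that of vehicle injected mice. In HPC and BS it was 0.11 ± 0.05 and 0.09 ± 0.05 averaged over phases.

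Tgm2 was higher in tumor-bearing than in vehicle injected mice, by similar amounts in HPC and BS. Its level was 7.35 ± 0.30 in HPC (SD, n = 20), 7.38 ± 0.32 in HYP (SD, n = 17) and 7.60 ± 0.27 in BS (SD, n = 19), with fitted differences of -0.24 ± 0.07 for HPC minus BS and -0.24 ± 0.08 for HYP minus BS. HPC minus HYP was 0.00 ± 0.08, and HYP exceeded HPC in 9 of 17 mice. In BS, Tgm2 levels at mid-dark were 8.02, 7.60, 7.56, 7.81 and 7.78 in tumor-bearing against 7.46, 7.17, 7.44 and 7.38 in vehicle injected mice. At mid-light they were 7.55, 7.88, 8.03, 7.72 and 7.98 in tumor-bearing against 7.63, 7.57, 7.29, 7.35 and 7.21 in vehicle injected mice. The groups did not overlap at mid-dark, and at mid-light 1 tumor-bearing mouse, at 7.55, lay below the highest vehicle injected mice. In HPC, Tgm2 levels at mid-dark were 7.32, 7.57, 7.77, 7.37 and 7.24 in tumor-bearing against 7.04, 7.09, 6.96, 7.05 and 7.36 in vehicle injected mice. At mid-light they were 7.52, 7.49, 7.95, 7.71 and 7.42 in tumor-bearing against 6.94, 6.94, 7.15, 7.67 and 7.47 in vehicle injected mice. The HPC groups overlapped through vehicle injected mice with high values, which were 7.67 and 7.47 at mid-light and 7.36 at mid-dark. In HYP, tumor-bearing mice spread from 6.83 to 7.95 and vehicle injected mice from 7.04 to 7.63.

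Averaged over phases, tumor minus vehicle for Tgm2 was 0.37 ± 0.10 in HPC, 0.27 ± 0.15 in HYP and 0.41 ± 0.08 in BS, or 1.29, 1.21 and 1.33 times the level of vehicle injected mice. It was nearly the same at both times of day in BS, 0.39 ± 0.12 at mid-dark and 0.42 ± 0.11 at mid-light, and in HPC, 0.35 ± 0.14 and 0.38 ± 0.14. The interaction was -0.04 ± 0.16 in BS and -0.03 ± 0.20 in HPC. RNA purity differed between the BS groups, since 4 of 10 tumor-bearing and 0 of 9 vehicle injected mice had an RNA absorbance ratio (a purity measure given in the labels) under 1.7. Over the BS samples with a ratio of at least 1.7, which left 2 tumor-bearing mice at mid-dark and 4 at mid-light, the Tgm2 difference was 0.30 (0.39 at mid-light, 0.21 at mid-dark), and Tgm2 was no longer among the genes called. No cell type marker was called for tumor status in any region. At most 1.04% of all genes were called there, so the lack of marker calls says little about cell numbers. The 9 endothelial markers had a summed log2 level of 11.34 to 11.69 in tumor-bearing and 11.48 to 11.65 in vehicle injected mice in BS, and the 5 markers of macrophages at vessels and meninges 6.94 to 7.73 and 7.06 to 7.58. In the same order, astrocyte markers ran from 15.25 to 15.57 and 15.26 to 15.42, and oligodendrocyte markers from 16.57 to 16.78 and 16.66 to 16.76. Microglia markers ran from 11.83 to 12.30 and 11.89 to 12.21, and neuron markers from 14.91 to 15.27 and 15.01 to 15.28.

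**Figure D2:**
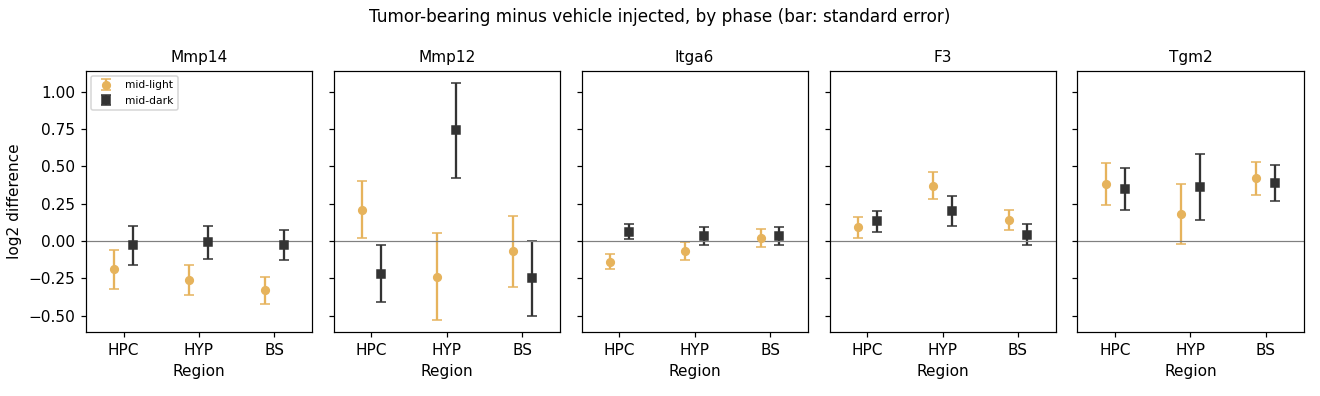
Tumor-bearing minus vehicle injected difference in log2 level (vertical axis) of each member by region, at mid-light and mid-dark. Points are the fitted differences and bars their standard errors. Tgm2 lay between 0.18 and 0.42 in all 6 comparisons, Mmp14 lay below 0 at mid-light and near 0 at mid-dark, and F3 was highest in HYP at mid-light, at 0.37.

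The members called by limma at an adjusted p under 0.05 are listed with the share of all tested genes called, which serves as the background, and nothing is read from the comparison because these contrasts chose the members. For tumor minus vehicle averaged over phases, Tgm2 was called in BS, where 1.04% of genes were called, and none of the 5 was called in HPC (0.52%) or HYP (0.26%). At mid-dark or mid-light alone none was called, against 0.13%, 0.0% and 0.26% of genes at mid-dark in HPC, HYP and BS and 0.13%, 0.0% and 0.78% at mid-light. For dark minus light averaged over tumor groups, F3 was called in HPC (5.59% of genes), Mmp14 in HYP (2.34%) and Mmp14 in BS (4.94%). The F3 call was lost without mouse 2 (vehicle injected, mid-light), with a difference of -0.20, and the HYP call of Mmp14 without mouse 4 or mouse 28 (vehicle injected, mid-dark), with -0.34 and -0.33. In vehicle injected mice alone Mmp14 was called in BS (1.3%), with none in HPC (2.34%) or HYP (0.26%), and in tumor-bearing mice none was called (1.04%, 1.04% and 0.78%). Leaving out 1 mouse also added calls. For phase in vehicle injected mice of HPC, Itga6 was called without mouse 12 (-0.22) and F3 without mouse 4 (-0.27), both vehicle injected at mid-dark. In HYP, F3 was called without mouse 5 (tumor-bearing, mid-light) for phase in tumor-bearing mice (-0.41), for averaged phase (-0.29) and for averaged tumor status (0.32), and for averaged phase also without mouse 13 of the same group (-0.22). Itga6 was called for averaged phase in BS without mouse 2, 5 or 32 (-0.17 to -0.16), Tgm2 for averaged tumor status in HPC without mouse 22 (0.42), and for tumor status at mid-light in BS Mmp14 without mouse 5 (-0.40) and Tgm2 without mouse 1 (0.50). Between regions, 3 members were called for HPC minus HYP (71.7% of genes), 5 for HPC minus BS (76.6%) and 5 for HYP minus BS (66.5%). Without mouse 28 (vehicle injected, mid-dark) Mmp12 was not called for HPC minus BS, at -0.23, and F3 for HYP minus BS was not called without any of 10 mice in turn, at 0.07 to 0.09. With both phases pooled, no member had tumor and vehicle groups without overlap (0.13% of all genes in each region), and with both tumor groups pooled none had mid-dark and mid-light groups without overlap (0.519%, 0.779% and 0.26% in HPC, HYP and BS). Within groups, the cases without overlap were Tgm2 for tumor status in BS at mid-dark (2.34% of all genes), F3 for tumor status in HYP at mid-light (1.43%), Mmp14, Mmp12 and F3 for phase in HYP of vehicle injected mice (7.92%) and Mmp14 for phase in BS of vehicle injected mice (5.84%). No member was without overlap for tumor status in HPC (0.779% at mid-dark, 2.08% at mid-light), in HYP at mid-dark (3.38%) or in BS at mid-light (1.3%). The same held for phase in HPC of vehicle injected mice (4.16%) and in tumor-bearing mice (1.95%, 2.47% and 2.34% in HPC, HYP and BS).

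**Figure D3:**
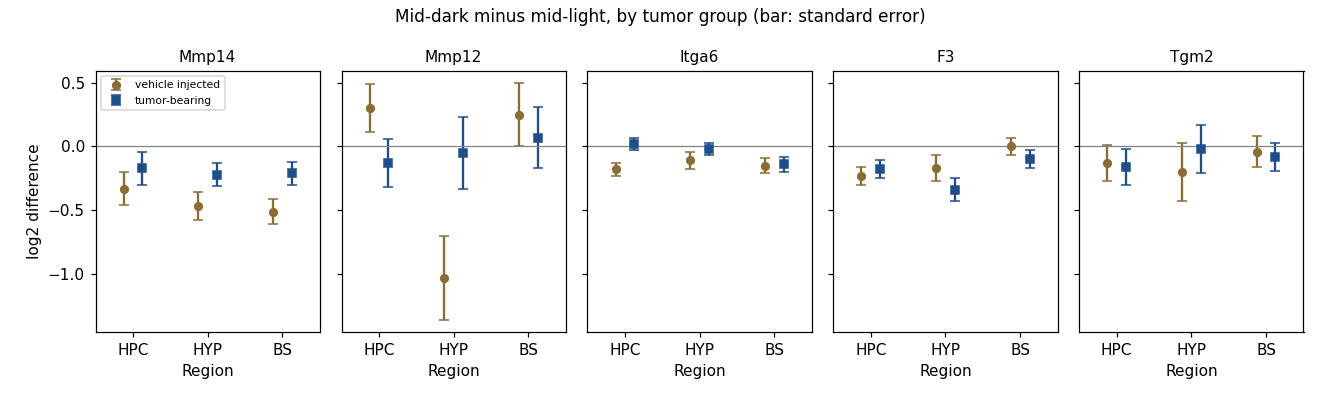
Mid-dark minus mid-light difference in log2 level (vertical axis) of each member by region, in vehicle injected and tumor-bearing mice. Points are the fitted differences and bars their standard errors. Mmp14 was below 0 in all 6 comparisons, from -0.51 to -0.17, and so was Tgm2, from -0.20 to -0.02. Mmp12 stood at -1.03 in the HYP of vehicle injected mice.

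Oligodendrocyte markers also differed between the phases, and these values stand beside the differences of Mmp14 and F3 because their part in them was not tested. In HPC 5 of 13 markers were lower at mid-dark and none was higher, in BS 4 were lower and 1 higher, and in HYP 1 was lower and 1 higher. Opalin, a myelin membrane protein, fell by 1.07, 1.05 and 1.23 on the log2 scale in HPC, HYP and BS. The summed log2 level of the markers ran in HPC from 14.59 to 15.67 at mid-dark against 15.28 to 15.92 at mid-light, and from 16.57 to 16.71 and 16.67 to 16.78 in BS, with no marker at the table's lowest value. In HYP, where the dark minus light difference of Mmp14 was -0.35, the ranges were 15.51 to 16.25 and 15.59 to 16.17. These ranges pool the tumor groups. In HPC the mean was 15.21 at mid-dark against 15.67 at mid-light in tumor-bearing mice, and 15.47 against 15.58 in vehicle injected mice. Dark minus light in HPC was -0.17 for Mmp14 and -0.18 for F3 in tumor-bearing mice, and -0.33 and -0.23 in vehicle injected mice. Of the endothelial markers, Cldn5 (claudin-5, a tight junction protein of vessels) rose at mid-dark by 0.29 in HPC and 0.43 in BS, averaged over tumor groups. In tumor-bearing mice alone Cldn5 rose by 0.49 in HPC, 0.59 in HYP and 0.59 in BS, and in vehicle injected mice alone it was not called. The other 8 were not called in any region. The summed log2 level of the 9 ran in HPC from 11.06 to 11.47 at mid-dark against 11.16 to 11.38 at mid-light, from 11.43 to 11.62 and 11.09 to 11.55 in HYP, and from 11.53 to 11.69 and 11.34 to 11.65 in BS.

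Of a list of 52 further matrix, integrin and coagulation genes, 38 were on the panel. None of the 38 was called for tumor status or for the interaction in any region, where at most 1.04% and 0.0% of all genes were called. Their median tumor minus vehicle difference was -0.04 in HPC, 0.01 in HYP and 0.01 in BS. For dark minus light, Ctsw, a cathepsin of lymphocytes, fell by 0.58 ± 0.16 in HPC, and Col6a3, a chain of type VI collagen, fell by 0.35 ± 0.07 in BS (standard errors). Each was 2.63% of the list, against 5.59% and 4.94% of all genes called. None of the list was called in HYP (2.34% of all genes). The median difference of the list was -0.03 in HPC, 0.00 in HYP and -0.01 in BS, against 0.011, 0.001 and 0.003 over all genes. Region differences were frequent in the list. For HPC minus HYP 9 were higher and 23 lower, for HPC minus BS 8 higher and 24 lower, and for HYP minus BS 9 higher and 15 lower, or 84.2%, 84.2% and 63.2% of the list against 71.7%, 76.6% and 66.5% of all genes. The widest were Spp1 (osteopontin, a secreted matrix protein), at -5.02 ± 0.13 for HPC minus BS and -3.67 ± 0.14 for HYP minus BS, and Igsf10, at -1.65 ± 0.07 for HPC minus HYP. Mfge8, which links integrins to dying cells, was higher in HPC than in BS by 1.56 ± 0.05. Among the listed genes of coagulation and fibrinolysis, Pros1 and Fgl2 were, like F3, lower in HPC than in HYP and BS.

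Tumor mass and spleen mass did not choose the members, and their relations to the members' levels were tested in the 10 tumor-bearing mice after phase means had been removed. None of the 30 relations passed adjustment (exact permutation of mice within phase, two-sided). The smallest p belonged to Tgm2 in HPC, which was higher in mice with more tumor mass, with Pearson's r = 0.75 (exact permutation p = 0.0263, adjusted p = 0.611) and Spearman's rho = 0.66 (exact permutation p = 0.0589, adjusted p = 0.555). Without the 2 mice farthest from the median mass r was 0.64. In HYP and BS, r for Tgm2 and tumor mass was -0.07 and -0.30. For spleen mass, Mmp12 in HPC gave r = 0.66 (exact permutation p = 0.0677, adjusted p = 0.611) and rho = 0.72 (exact permutation p = 0.0412, adjusted p = 0.555), with r = 0.48 without the 2 farthest mice.

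Deviations from the group means also did not choose the members. For the same member in 2 regions of a mouse, none of 15 relations passed adjustment. The smallest p was that of F3 in HYP and BS, with r = 0.41 (permutation p = 0.0469, adjusted p = 0.39) and rho = 0.41 (permutation p = 0.196, adjusted p = 0.42) over 16 mice, and r = 0.28 without the 2 farthest mice. Mmp14 had r = 0.49 between HPC and HYP (permutation p = 0.0575, adjusted p = 0.39), which was 0.15 without the 2 farthest mice. Its rho was 0.47 (permutation p = 0.0685, adjusted p = 0.42). Over all genes of the panel the median r between 2 regions was 0.14 to 0.16. For pairs of members within a region, none of 30 relations passed. Mmp14 and Itga6 in BS had r = -0.60 (permutation p = 0.0143, adjusted p = 0.429) and rho = -0.59 (permutation p = 0.0173, adjusted p = 0.435) over 19 samples, and Itga6 and Tgm2 in HPC had r = -0.50 (permutation p = 0.0332, adjusted p = 0.498) and rho = -0.49 (permutation p = 0.0359, adjusted p = 0.435) over 20 samples. Without the 2 farthest mice these were -0.45 and -0.42.

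The 3 panel genes most like each member were ranked by Pearson's r of deviations from the 12 group means over the 56 samples, which share mice, and are given as a description. Tgm2 was most like Serping1 (the C1 inhibitor), at r = 0.74, Fgl2 (fibrinogen-like 2) at 0.72 and Cp (ceruloplasmin, a copper-carrying oxidase) at 0.71. These were strongest in HYP, at 0.94, 0.84 and 0.90, against 0.58, 0.54 and 0.48 in HPC and 0.51, 0.68 and 0.60 in BS. Without the 2 samples farthest in Tgm2 from the median deviation, r over all regions was 0.68, 0.68 and 0.65. The farthest was the HYP sample of mouse 1 (tumor-bearing, mid-light), at -0.67. This sample was also the lowest in HYP for Serping1, at -0.987, and for Fgl2, at -0.682, and near the lowest for Cp. Its value of the other RNA purity ratio in the labels was the lowest of all samples. The r within HYP was not computed without it. In HYP the spread of Tgm2 between mice went with that of the 3 genes. Their tumor minus vehicle differences were not those of Tgm2 in each region. In BS, where Tgm2 differed by 0.41, Serping1 differed by 0.30 ± 0.17, Fgl2 by 0.19 ± 0.13 and Cp by 0.40 ± 0.13, and in HPC, where Tgm2 differed by 0.37, the values were -0.07 ± 0.12, -0.21 ± 0.09 and 0.15 ± 0.09. In HYP, where Tgm2 differed by 0.27, they were 0.07 ± 0.27, -0.12 ± 0.23 and 0.33 ± 0.19.

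**Figure D4:**
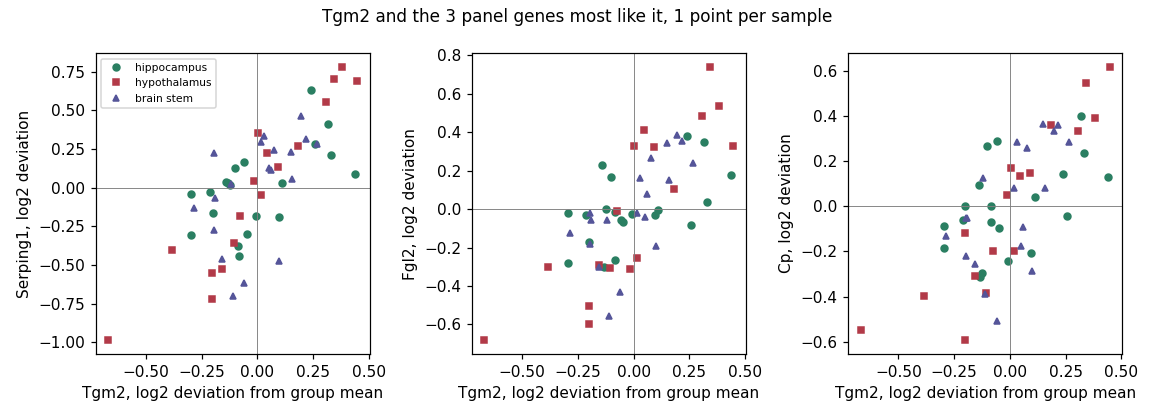
Deviation of Serping1, Fgl2 and Cp from their group means (vertical axes, log2) against that of Tgm2 (horizontal axis, log2), with a point for each of the 56 samples and a symbol for each region. The HYP samples lie closest to a line, with r of 0.94, 0.84 and 0.90, and reach farthest on both axes.

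F3 was most like Tgfbr1 (a receptor of TGF-beta) at r = 0.52, Cp at 0.52 and Pros1 (protein S, a cofactor that limits clotting) at 0.48. Among the genes most like Mmp14 were the actin-bundling gene Fscn1 at 0.47 and the astrocyte transcription factor Sox9 at 0.45. In HPC these values for Mmp14 were 0.68 and 0.64, and in HYP 0.25 and 0.16. Itga6 was most like Arhgap24 at 0.50, with 0.79 in BS, Igsf6 at 0.47 and Cideb at 0.41. Mmp12 was most like Cytip at 0.45, Tnfrsf12a at 0.35 and Atr at 0.34. Over all panel genes the median r with a member lay between -0.04 and 0.02. The genes named were picked as the highest of the panel, so this median is no yardstick for their r, which was not tested. Over all pairs of panel genes within a region, with fewer samples, the 95th percentile of r was 0.49 in HPC, 0.53 in HYP and 0.52 in BS.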

How the data were processed

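The deposited values are log2 expression values that the authors made from nanoString counts in nSolver, by subtraction of negative controls and scaling to positive controls and codeset content, followed by quantile normalization in Partek. Raw counts were not used, so depth is unknown, as is the part of low counts in the spread of low values such as those of Mmp12. Precision was judged from the spread between mice and how many there were. The members and lists were chosen with earlier results of these data known.

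Samples were grouped by region, tumor status, phase and mouse from the labels. For each region, limma 3.58.1 (R 4.3.3) was fitted to 4 group means, and the moderated p values were adjusted by Benjamini-Hochberg over all genes, with a call at an adjusted p under 0.05. A gene with 1 value throughout a region was not tested, which left 769 genes in HPC and BS. The region comparison used 12 group means and the mouse as a random block, since the same mice gave each region (correlation 0.136). The fits were also run on simulated data, drawn independently for each sample, which could not check the block for the mouse. Relations were tested in Python 3.11.15 with 14400 exact arrangements within phase, or 100000 resamples within groups, and Benjamini-Hochberg adjustment over each family. Named genes were the members, their 3 most alike genes, and of the lists those called for tumor or phase and the 3 with the widest difference per region contrast. Besides these, Slc17a7 and Slc17a6 check the regions. Some genes that the rule names are not reported here. Alternatives were ordinary p values, genes averaging 5 or more, subtraction of each sample's median, a further quantile normalization for each region, BS samples with an absorbance ratio of at least 1.7, only the 2 groups compared, vehicle injected mice only, no block or a fixed block, and leaving out each mouse.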

Additional observations from a re-analysis of the deposited data

Results flagged for a closer look

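In 2 of 55 groups of a member with 4 or 5 samples, a mouse stood apart from the others by Dixon's criterion, which chance meets in about 1 of 20 groups. Mmp14 in the BS of vehicle injected mice at mid-dark was 7.63 in mouse 32, against 7.88 to 7.92 in the other mice. Mmp12 in the BS of vehicle injected mice at mid-light was 3.55 in mouse 30, against 4.19 to 4.40 in the other mice. In none of 90 comparisons of a member's difference between 2 regions, phases or tumor groups did every mouse lie on opposite sides.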

How the results depend on the processing

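Of 2811 recomputed differences of the members, 2810 moved by less than 1 SD between mice. This count could hardly come out otherwise and is no measure of robustness. Several alternatives leave a difference of group means unchanged or nearly so, and leaving out 1 mouse shifts a group mean by only part of the SD. The 1 called difference that changed sign was F3 for HYP minus BS, which was -0.01 in vehicle injected mice only. There 3 members were called for HYP minus BS. Without a replicate block for the mouse, the region fits called 541, 578 and 504 genes for HPC minus HYP, HPC minus BS and HYP minus BS, with F3 no longer called for HYP minus BS (0.08, 4 members), and the pairing of samples by mouse as a fixed block gave 550, 583 and 514. Over BS samples with an RNA absorbance ratio of at least 1.7, 0 genes were called for tumor status at mid-dark, 3 at mid-light and 4 averaged, none a member, and 19 for phase. The fit to only the 2 groups compared called 2 genes at mid-dark in HPC and 1 at mid-light in BS. Among genes with a mean of at least 5, 2 genes were called at mid-dark in HPC, and for phase in HYP 2 members, F3 and Mmp14. Ordinary p values called 1 gene for averaged tumor status in HYP, 2 at mid-light in BS, and for phase in BS 2 members, Itga6 and Mmp14. The cause of these shifts was not tested, beyond the fewer samples or genes in some fits.

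With each mouse left out, genes called for tumor status ranged from 1 to 3 at mid-dark and 1 to 3 at mid-light in HPC, 0 to 1 at mid-dark in HYP, 2 to 5 at mid-dark and 2 to 6 at mid-light in BS, and 0 to 4 averaged in HYP. Members called ranged from 0 to 1 for averaged tumor status in HPC (Tgm2) and in HYP (F3) and at mid-light in BS (Mmp14 or Tgm2). For phase, genes ranged from 27 to 51 in HPC, 11 to 21 in HYP and 25 to 42 in BS, and members from 0 to 1, 0 to 2 and 1 to 2. Interaction calls in HPC ranged from 0 to 1, none a member. No relation passed under any alternative. With 3 to 5 mice in a group, differences of the size of the members' standard errors were not detectable.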
